A study of Mus musculus with 20 samples.

Results

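The fatty acid synthesis genes are the enzymes and regulators that turn citrate and acetyl units into long-chain fatty acids, and they were followed here in mouse trachea with and without Myd88, the adaptor protein of Toll-like and interleukin-1 receptors. Of 10 genes listed (Srebf1, Thrsp, Acly, Me1, Acaca, Acacb, Fasn, Elovl6, Scd1 and Scd2), 9 were found by their name on the array, with 15 of 41174 probes. Me1 had no probe under that name. It was represented by 2 probes that the array names Mod1, the older symbol of Me1, and these are described beside the others and left out of the counts of probes called, higher or lower.

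The study asked how Myd88 affects the adult trachea before and after loss of its epithelium, and measured 1 one-colour Agilent whole mouse genome array for each of 20 whole tracheas. The 4 groups held 5 tracheas each: uninjured wild type (WT-control), uninjured Myd88 knockout (KO-control), and each genotype 3 days after 2% polidocanol, a detergent that strips the airway epithelium (WT-injury and KO-injury). All mice were on the C57/Bl6 strain, with an age of 4 months in the labels and a wider range in the methods. The knockout lacks Myd88 in every cell, had been backcrossed for several generations to C57/Bl6JOlaHsd and was bred knockout to knockout, while wild-type mice came from a separate colony, so genotype and colony cannot be told apart.

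In fatty acid synthesis, ATP citrate lyase (Acly) splits cytosolic citrate into acetyl-CoA, malic enzyme (Me1) supplies NADPH, acetyl-CoA carboxylases (Acaca and Acacb) make malonyl-CoA, and fatty acid synthase (Fasn) builds palmitate. Elovl6 lengthens palmitate, and the stearoyl-CoA desaturases Scd1 and Scd2 introduce a double bond. The transcription factor encoded by Srebf1 activates most of these genes, and Thrsp (Spot 14) is a nuclear protein that accompanies them in lipogenic tissue. Adipose tissue, white and brown, is known for high levels of the whole set, as are liver and sebaceous gland.

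Promoter sequence is shown for Acly, the 1 member called both between the uninjured groups and after injury in the knockout, and for Fasn and Thrsp, whose probes varied most closely with the rest of the set. The 250 bases before the annotated start are from RefSeq on GRCm38.p6, read on the minus strand, with the letters CCAAT and GGGCGG and their reverse complements in capitals.
Acly, chr11:100528001-100528250: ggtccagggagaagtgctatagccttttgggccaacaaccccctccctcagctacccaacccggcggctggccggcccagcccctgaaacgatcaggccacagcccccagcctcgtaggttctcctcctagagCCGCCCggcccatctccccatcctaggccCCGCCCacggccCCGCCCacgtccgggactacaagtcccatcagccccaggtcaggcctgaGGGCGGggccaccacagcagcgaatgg
Fasn, chr11:120824548-120824797: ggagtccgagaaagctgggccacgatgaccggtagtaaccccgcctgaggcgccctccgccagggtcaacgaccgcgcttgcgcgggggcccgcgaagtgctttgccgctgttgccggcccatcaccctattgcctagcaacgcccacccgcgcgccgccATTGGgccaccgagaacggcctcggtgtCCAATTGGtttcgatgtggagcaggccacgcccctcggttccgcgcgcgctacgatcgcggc
Thrsp, chr7:97417551-97417800: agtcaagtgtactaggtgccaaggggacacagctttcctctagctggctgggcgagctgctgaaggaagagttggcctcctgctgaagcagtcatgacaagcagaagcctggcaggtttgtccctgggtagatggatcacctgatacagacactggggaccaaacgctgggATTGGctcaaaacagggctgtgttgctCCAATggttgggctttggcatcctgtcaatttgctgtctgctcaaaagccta

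The Acly window held 4 matches to GGGCGG and none to CCAAT. The Fasn window held 3 matches to CCAAT, of which a pair on opposite strands overlapped, and the Thrsp window held 2. The promoter table held 11 windows for 8 of the 10 genes, Me1 included. CCAAT was in 6 of these windows and GGGCGG in 4, while 33.8% and 32.7% of all 32851 windows of the same length held these letters on either strand. TCACNCCAC, a sterol-response-like string, was found in none of the 11 windows and in 1.05% of all windows. Scd1 and Scd2 were without an entry.

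Levels below are log2 signals relative to the 75th percentile of each array, so a difference of 1 is a doubling, and levels of different probes are not compared. A probe was tested if it was well above background on at least 10 of 20 arrays, which 14 of the 15 probes were, covering all 9 genes found by name. The second Acly probe, on a cDNA within the gene, was well above background on 1 of 20 arrays and was not tested. By the files' positions, of unstated build, the probes of the most discussed members lie at chr11:60281270-60281329 (Srebf1), chr11:100586242-100586300 (Acly 1), chr11:120915397-120915456 (Fasn 2) and chr19:44288770-44288829 (Scd1), all on the minus strand. The files do not say which exon a probe covers.

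Before the members, 4 properties of the arrays bear on them. Myd88 itself was 1.94 to 2.28 in WT-control and 1.60 to 2.04 in KO-control, ranges that overlapped, and 2.36 to 2.80 in WT-injury against 1.54 to 2.09 in KO-injury. The array's Myd88 probe may lie outside the deleted part, which the sources used here do not settle, and it is no check of the uninjured labels. In KO-injury, replicate 5 went against its label: Saa3, an acute-phase gene that was 0.45 to 6.16 in WT-injury and -6.80 to -3.11 in WT-control, was -6.26 there, and Scgb1a1, a secretory cell gene lost with the epithelium, was 7.56 before its outlier mark was applied, against 6.97 to 7.93 in WT-control. KO-injury replicate 1 was intermediate, with -3.87 for Saa3 and 4.79 for Scgb1a1, so results of members in injured knockouts are also given without replicates 1 and 5. Replicate 3, kept in those results, also lay between, at -2.35 and 2.72. Replicates 2 and 4 were at 0.23 and 0.22 for Saa3 and -0.84 and 0.18 for Scgb1a1. In KO-control Saa3 was -7.47 to -5.91 and Scgb1a1 7.65 to 8.25. Judged by Xist against Ddx3y, 3 of 5 tracheas were from females in WT-control, KO-control and WT-injury and 4 of 5 in KO-injury, where replicate 5 was the male. Slides carried 4 arrays, 1 from each group. The 2 uninjured arrays of a slide were of the same sex on 5 of 5 slides, and the 2 injured arrays on 2 of 5. Uninjured and injured knockout arrays differed in sex on slides 2, 3 and 5.

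Uninjured Myd88KO tracheas had higher mean signal for the 9 genes found by name. Me1, not in these counts, differed by 0.31 and 0.29 with overlapping groups. All 14 tested probes were higher in KO-control than in WT-control, by 0.49 to 1.21 with a median of 0.88, where the median over all 26063 tested probes was 0.04. Acly and 1 of the 4 Acaca probes rose past an adjusted p of 0.01 (limma, Benjamini-Hochberg over all tested probes), 2 of 14 where 0.188% of all probes were called higher. At an unadjusted p under 0.05 the count was 13 of 14 against 3.82% of all probes, and in 9 of 14 the groups did not overlap, against 1.71%.

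Acly was 1.62, 0.90, 1.58, 1.83 and 0.96 in WT-control replicates 1 to 5 and 2.80, 2.64, 2.69, 2.53 and 2.28 in KO-control. The lowest knockout lay above the highest wild type. The difference was 1.21 ± 0.21 (SE), a 2.32-fold rise (limma, adjusted p = 0.00465), and on the 5 slides it ran from 0.71 to 1.75. With the slide as a block, which pairs the uninjured arrays, the call was lost (limma, adjusted p = 0.0128).

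Srebf1, the regulator, had the tightest wild-type values, at 4.47, 4.51, 4.31, 4.54 and 4.51. KO-control arrays were at 5.24, 5.33, 5.37, 5.08 and 4.96, again without overlap. The difference of 0.73 ± 0.14 (SE) missed the threshold (limma, adjusted p = 0.0115), and it was 0.45 to 1.06 within slides. Thrsp was 3.94, 3.44, 3.73, 4.63 and 3.37 in WT-control and 5.08, 4.93, 4.91, 4.97 and 4.43 in KO-control, a difference of 1.04 ± 0.35 with overlap at WT-control replicate 4 (limma, adjusted p = 0.423).

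Acaca, the cytosolic acetyl-CoA carboxylase, was measured by 4 probes that were all higher in KO-control, by 0.53 to 1.21. Acaca 3 was -3.81, -4.68, -4.04, -3.66 and -3.38 in WT-control and -2.79, -2.88, -2.68, -2.54 and -2.64 in KO-control. All knockout arrays were above all wild-type arrays, and the difference of 1.21 ± 0.21 was called (limma, adjusted p = 0.00547). Acaca 1, Acaca 2 and Acaca 4 gave 0.78, 1.10 and 0.53, and none of these was called (limma, adjusted p of 0.335 or more). The probe positions in the files, whose build is not stated, place an unnamed probe (A_52_P541760, chr11:84360192-84360250, plus strand) inside the stretch that Acaca 3 spans (chr11:84350405-84362820, plus strand). That probe rose above background on none of the wild-type arrays and on every knockout array, at -6.76 to -4.56 in WT-control and -2.99 to -1.92 in KO-control, at least 5.31-fold brighter in the latter (limma, adjusted p = 1.605e-05). In WT-injury it was -6.22 to -4.93 and in KO-injury -3.77 to -2.78, at least 3.26-fold brighter in the knockout (limma, adjusted p = 0.000228). Whether it bears on the Acaca 3 signal was not tested.

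Acacb, the carboxylase that sits at the mitochondrial membrane, was 3.42, 3.50, 3.12, 3.68 and 3.45 in WT-control and 4.05, 4.30, 4.36, 4.05 and 4.52 in KO-control by its brighter probe. These groups were apart, with a difference of 0.82 ± 0.23 (limma, adjusted p = 0.199). The dimmer Acacb probe differed by 0.49 ± 0.34 with overlapping groups.

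Fasn is the enzyme that assembles the chain, and both of its probes separated the uninjured groups. Fasn 2 was 1.59, 0.86, 1.51, 2.31 and 1.38 in WT-control and 2.75, 2.76, 2.95, 2.66 and 2.46 in KO-control, a difference of 1.19 ± 0.35 (limma, adjusted p = 0.233). For the brighter Fasn 1 the scanner software had marked the spot as an outlier on 9 of 20 arrays, including 3 of 5 in WT-control, and these were left out. The remaining WT-control arrays read 7.65 and 7.51 and the KO-control arrays 8.31 to 8.78, a difference of 0.94 ± 0.26, and 1.07 with the marked spots kept.

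Further along the pathway, Elovl6 was 1.97, 1.03, 2.76, 2.67 and 1.80 in WT-control and 3.03, 2.46, 2.56, 3.16 and 2.79 in KO-control, with a difference of 0.76 ± 0.32 and overlapping groups. Scd1, the main desaturase of adipose tissue and liver, was 5.03, 4.97, 5.10, 5.78 and 4.89 in WT-control and 5.97, 6.90 and 5.84 on the 3 KO-control arrays whose spot was not marked as an outlier. These did not overlap, and the difference was 1.08 ± 0.37 (limma, adjusted p = 0.456). Scd2, the desaturase of most other tissues, was 3.92, 3.50, 4.16, 4.17 and 3.86 in WT-control and 4.59, 4.57, 4.85, 4.57 and 3.64 in KO-control, where replicate 5 lay among the wild types. Me1 differed least, by 0.31 ± 0.26 and 0.29 ± 0.32 over its 2 probes, both with overlapping groups.

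Both calls between the uninjured groups lay close to the threshold. The number of member probes called fell to 1 without WT-control replicate 1, 3 or 5 or KO-control replicate 5 and to 0 without WT-control replicate 2 or KO-control replicate 1, 2, 3 or 4, and it was 1 with the slide as a block. Within slides, 62 of 65 differences over the 14 probes were positive, where 56.7% of all probes were higher between the group means. These differences are not independent, since some probes share a gene and all share the same slides.

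**Figure D1:**
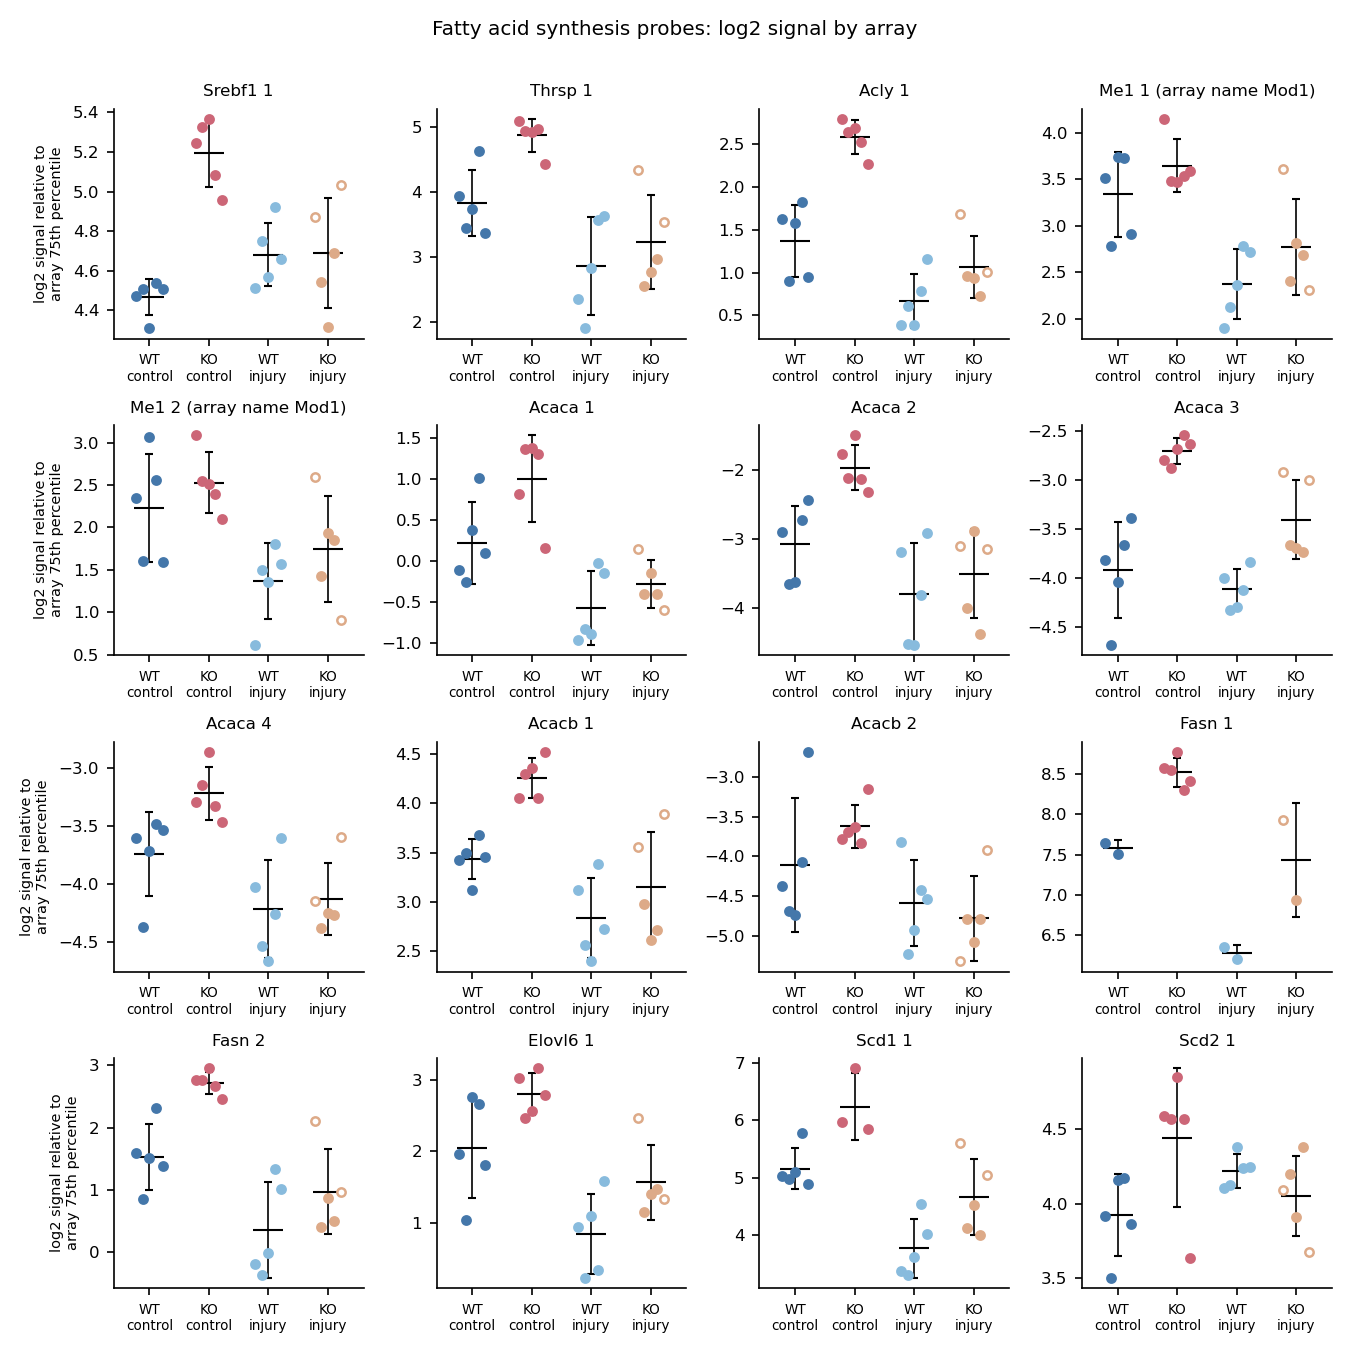
Log2 signal of the 16 tested probes, relative to each array's 75th percentile, in the 4 groups. Each point is 1 array, ordered by replicate number within its group, the bar and whiskers are the mean and SD, and open points mark KO-injury replicates 1 and 5. KO-control stands highest in nearly every panel, Acly in KO-control at 2.28 to 2.80 above all other groups, and Scd2 shows the weakest pattern.

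In wild-type tracheas the set was lower 3 days after injury. Of 14 probes 12 were lower in WT-injury than in WT-control, with a median of -0.72 where the median over all probes was near 0 (9.9e-05). Only Scd1 fell past the threshold, 1 of 14 where 2.03% of all probes were called lower. At an unadjusted p under 0.05, 9 of 14 were lower against 11.9% of all probes, and in 2 of 14 the groups did not overlap, against 4.68%. These were Scd1 and Fasn 1, the latter measured on 2 arrays in each group. With its marked spots kept, Fasn 1 was 6.84 to 7.91 in WT-control and 6.06 to 7.33 in WT-injury, which overlapped.

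Scd1 in WT-injury was 3.37, 3.30, 3.61, 4.54 and 4.02, all below the lowest WT-control value of 4.89. The difference was -1.39 ± 0.32 (limma, adjusted p = 0.00881), and it ran from -1.67 to -0.87 within slides. This call was lost with the slide as a block (limma, adjusted p = 0.0143) and, with an adjusted p of up to 0.0291 (limma), when any WT-control replicate, WT-injury replicate 1, 2, 3 or 5, KO-control replicate 1 or 5, or KO-injury replicate 3 was left out. Fasn and Elovl6 had differences of similar size. Fasn 2 in WT-injury was -0.19, -0.37, 0.00, 1.34 and 1.01 (difference -1.17 ± 0.35, limma, adjusted p = 0.0308), and Elovl6 was 0.95, 0.23, 1.10, 0.34 and 1.59 (difference -1.21 ± 0.32, limma, adjusted p = 0.0188), both overlapping WT-control. The highest WT-injury value of Fasn 2, Thrsp, Scd1 and Me1 came from replicate 4 or 5.

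Acly was 0.39, 0.62, 0.39, 0.78 and 1.15 in WT-injury, a difference of -0.71 ± 0.21 (limma, adjusted p = 0.0329). Thrsp differed by -0.97 ± 0.35, Me1 by -0.96 ± 0.26 and -0.86 ± 0.32, Acaca probes by -0.79 to -0.20 and Acacb probes by -0.60 and -0.47, none of which was called. Srebf1 and Scd2 went the other way. Srebf1 in WT-injury was 4.51, 4.75, 4.57, 4.92 and 4.66, higher on 5 of 5 slides, by 0.04 to 0.38, yet the difference of 0.21 ± 0.14 was not called (limma, adjusted p = 0.348). Scd2 was 4.11, 4.13, 4.38, 4.24 and 4.25, also higher on 5 of 5 slides, with a difference of 0.30 ± 0.20 (limma, adjusted p = 0.362).

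In knockout tracheas the injured arrays were lower for every probe. All 14 probes were lower in KO-injury than in KO-control, by a median of -1.20 where the median over all probes was -0.07. Acly alone fell past the threshold, 1 of 14 where 0.242% of all probes were called lower. At an unadjusted p under 0.05, 13 of 14 were lower against 12.2% of all probes, and 11 of 14 did not overlap, against 2.3%.

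Acly in KO-injury was 1.68, 0.96, 0.93, 0.73 and 1.01, all below the lowest KO-control value of 2.28. The difference was -1.52 ± 0.21, a 2.88-fold fall (limma, adjusted p = 0.00210), and it held on 5 of 5 slides at -1.80 to -1.11. It was just lost without KO-control replicate 3 or KO-injury replicate 2 or 4, at an adjusted p of up to 0.0120 (limma). Fasn 2 was 2.11, 0.40, 0.87, 0.51 and 0.97 (difference -1.74 ± 0.35, limma, adjusted p = 0.0124), below KO-control on all arrays with replicate 1 the highest. Thrsp was 4.33, 2.54, 2.77, 2.96 and 3.53 (-1.64 ± 0.35, limma, adjusted p = 0.0191), and replicates 1 and 5 were again the highest. Scd1 was 5.61, 4.12, 4.53, 4.01 and 5.05 (-1.58 ± 0.37, limma, adjusted p = 0.0296), with the same pair on top.

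Srebf1 in KO-injury was 4.87, 4.54, 4.31, 4.69 and 5.03, a difference of -0.51 ± 0.14, with replicate 5 inside the KO-control range. The count of falls depended on KO-injury replicates 1 and 5. Without KO-injury replicate 5, 7 of 14 probes fell past the threshold, where 2.26% of all probes did, and 3 of 14 were called without replicate 1, where 0.173% of all probes were. Without both, 12 of 14 fell, where 4.49% of all probes did, and the median was -1.48. The 2 probes not called then were Scd2, at -0.28, and the dimmer Acacb probe, at -1.27 (limma, adjusted p = 0.0280). No member was called without KO-control replicate 3, KO-injury replicate 2 or KO-injury replicate 4.

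Between injured groups the genotypes were closer. In KO-injury against WT-injury 12 of 14 probes were higher, with a median of 0.34 (all probes -0.03), and 0 were called, where 0.15% of all probes were called higher (limma). At an unadjusted p under 0.05, 4 of 14 were higher against 4.43% of all probes, in 2 of 14 the groups did not overlap, against 0.694%, and the smallest adjusted p was 0.160 (limma). The 2 probes without overlap were Acaca 3 and Fasn 1. Fasn 1 was 6.35 and 6.20 on the 2 WT-injury arrays measured and 7.93 and 6.94 on the 2 KO-injury arrays. With its marked spots kept it was 6.06 to 7.33 and 6.40 to 7.93, which overlapped. The 4 probes at an unadjusted p under 0.05 were Acaca 3 (0.71 ± 0.21), Fasn 1 (1.16 ± 0.31, and 0.36 with marked spots kept), Elovl6 (0.73 ± 0.32) and Scd1 (0.89 ± 0.32). Srebf1 differed by 0.01 ± 0.14, with a 95% confidence interval of -0.28 to 0.30. Without KO-injury replicates 1 and 5 the median was 0.12 and 1 of 14 was higher at an unadjusted p under 0.05, against 3.7% of all probes.

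The test of the difference between the 2 injury responses called 0 of 14 members and 0% of all probes (limma), and the smallest adjusted p over the members was 0.391. At an unadjusted p under 0.05, 3 of 14 had a lower response in the knockout, against 6.96% of all probes: Srebf1 at -0.72 ± 0.20, Acly at -0.82 ± 0.30 and Scd2 at -0.69 ± 0.28. For Srebf1 and Scd2 the wild-type response was above 0 and the knockout response below it, and for Acly both were below 0. Without KO-injury replicates 1 and 5 there were 5 of 14, against 7.3% of all probes, and Srebf1 was at -0.89. These contrasts share the control arrays with the comparison of uninjured groups, so they are not separate evidence of it.

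**Figure D2:**
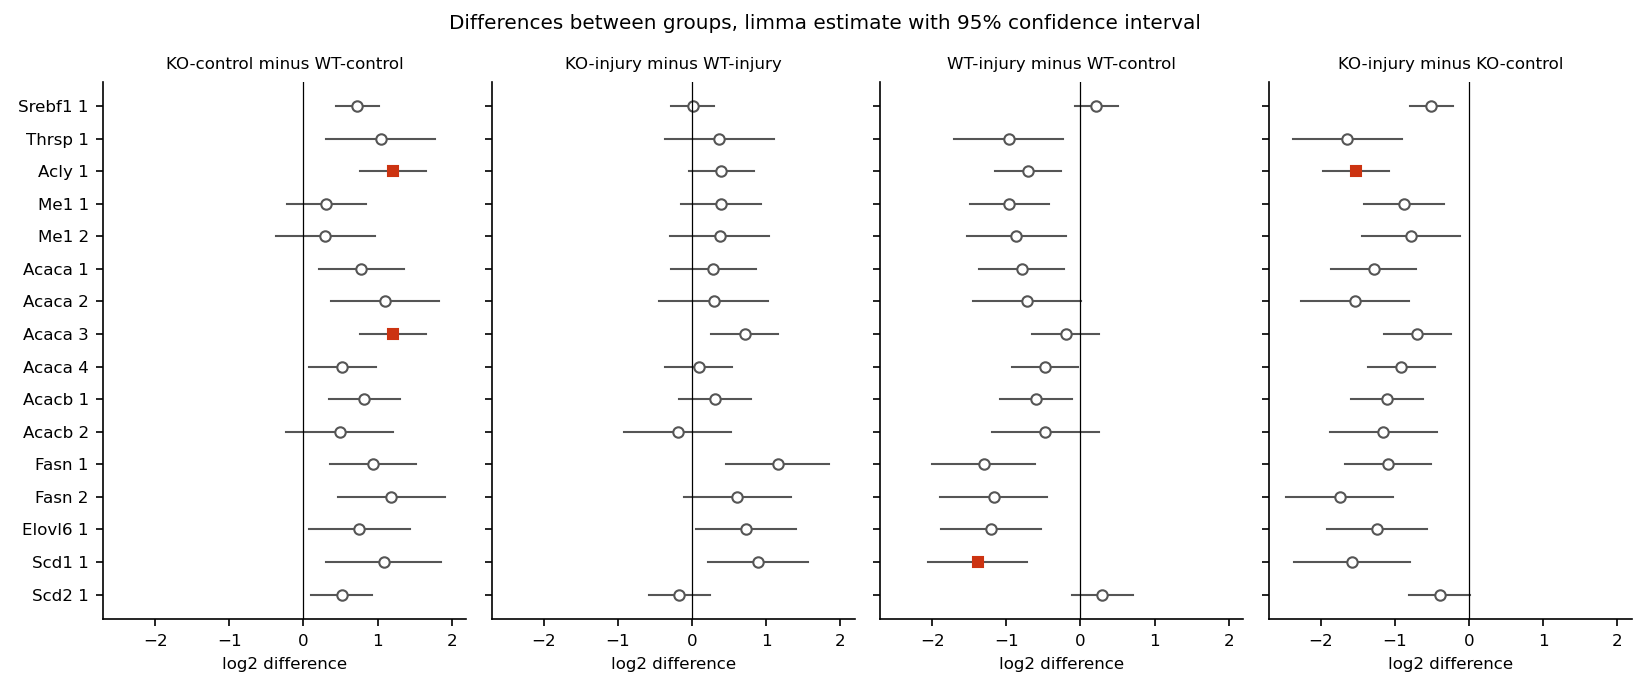
Log2 differences of the 16 tested probes in 4 comparisons, as limma estimates with 95% confidence intervals, with red squares where the adjusted p was under 0.01. The uninjured knockout exceeds the uninjured wild type for every probe, with Acly 1 and Acaca 3 called at 1.21, while Srebf1 in the injured groups lies at 0.01.

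The members varied together over the arrays. Taking 1 probe for each of the 10 genes, Me1 included, the median correlation over the 45 pairs was 0.82 across up to 20 arrays and 0.51 after each group's mean was subtracted. Acly, Fasn, Scd1 and Thrsp were closest to the rest, with median correlations of 0.86 to 0.90. Scd2 was the least alike at 0.37, and Srebf1 was at 0.57. This is a description over arrays that share slides, and Fasn 1 was measured on 11 of them. The mean of the 10 genes, each centred on 0 over its measured arrays, was 0.57 to 1.03 in KO-control and -0.31 to 0.54 in WT-control. It was -0.52 to 0.34 in KO-injury and -0.94 to -0.29 in WT-injury. Fasn 1 lacked a value on 9 arrays and Scd1 on 2, and there the mean was over the other genes. Of the 11 arrays with Fasn 1, 5 were KO-control. KO-injury replicate 1 and WT-control replicate 4 were the highest outside KO-control.

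The tested probes most like that mean over 20 arrays were A530016L24Rik (0.97), Nat8l (0.95), the unnamed NAP123621-1 (0.95), H2-Q10 (0.93), Igsf21 (0.92), Tkt (0.92), Ptger3 (0.92), 2010003K11Rik (0.91), Edar (0.91) and Cidea (0.91). Nat8l makes N-acetylaspartate and is abundant in brown adipocytes, Tkt is transketolase of the pentose phosphate pathway, Edar is the ectodysplasin receptor, and Cidea coats lipid droplets in brown adipocytes. After group means were subtracted Nat8l was at 0.93, Tkt at 0.83, Cidea at 0.81 and Edar at 0.55.

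Most adipocyte markers were higher in KO-control and lower after injury, as were most members of the set. In whole trachea a change in the number of cells of a type and a change in RNA per cell cannot be told apart. Of 5 brown adipocyte markers, 4 were higher in KO-control than in WT-control, with a median of 1.14. At an unadjusted p under 0.05, 3 were higher against 3.82% of all probes, and 0 were called (limma). Ucp1, the uncoupling protein that defines brown fat, was 1.50, 2.37, 0.66, 3.09 and 2.30 in WT-control and 3.95, 4.50, 4.18, 5.06 and 4.34 in KO-control, without overlap. The difference was 2.42 ± 0.68 (limma, adjusted p = 0.199). Cidea differed by 1.54 ± 0.45 and the proton channel Otop1 by 1.14 ± 0.37, while Cox8b differed by 0.41 ± 0.47 and Dio2, which makes active thyroid hormone, by -0.62 ± 0.32.

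The mean of the 5 brown adipocyte markers was 2.13 to 3.25 in WT-control and 3.59 to 3.85 in KO-control, and 1.32 to 3.24 in WT-injury and 2.19 to 3.84 in KO-injury. Its correlation with the mean of the 10 genes was 0.82 over 20 arrays and 0.65 after group means were subtracted. In KO-injury replicates 1 and 5 Ucp1 was 4.91 and 4.82, against 2.37 to 3.47 on the others. Both were also the highest KO-injury arrays for Srebf1, Thrsp, Acly, Acaca 3, Acaca 4, Acacb 1, Fasn 2 and Scd1. Replicate 5 was the lowest of the group for both Me1 probes (2.31 and 0.91), Acaca 1 (-0.60) and Scd2 (3.68). Replicate 1 was the lowest for Acacb 2 (-5.32). WT-injury replicate 4, at 4.22 for Ucp1, was the highest of its group for Srebf1, both Me1 probes, Acaca 1, Acacb 1, Fasn 2 and Scd1. It was not the highest for Thrsp, Acly, Scd2 or the other Acaca and Acacb probes, and was low for Elovl6 at 0.34.

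Of 10 general adipocyte markers 8 were tested, Lep and Adrb3 being too dim. In KO-control 6 of 8 were higher and the others lower, with a median of 0.47 and 0 called (limma). At an unadjusted p under 0.05, 1 of 8 was higher against 3.82% of all probes (limma). In 1 of 8 the groups did not overlap, against 1.71%. Among the 6 were the lipid droplet protein Plin1 at 0.92 ± 0.33, Adipoq (adiponectin) at 0.54 ± 0.33 and the fatty acid binding protein Fabp4 at 0.52 ± 0.34. The mean of the 8 markers was 4.07 to 4.88 in WT-control and 4.73 to 5.37 in KO-control, overlapping. It correlated with the mean of the 10 fatty acid synthesis genes at 0.69 over 20 arrays and 0.58 after group means were subtracted. After injury both lists were lower, by a median of -0.47 and -0.29 in wild type and -0.95 and -0.70 in knockout for the brown and general markers. Without KO-injury replicates 1 and 5 the knockout medians were -1.74 and -1.19. Then 3 of 5 and 3 of 8 markers were called lower (limma), against 4.49% of all probes. The part of adipose tissue in the members' differences was not tested.

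**Figure D3:**
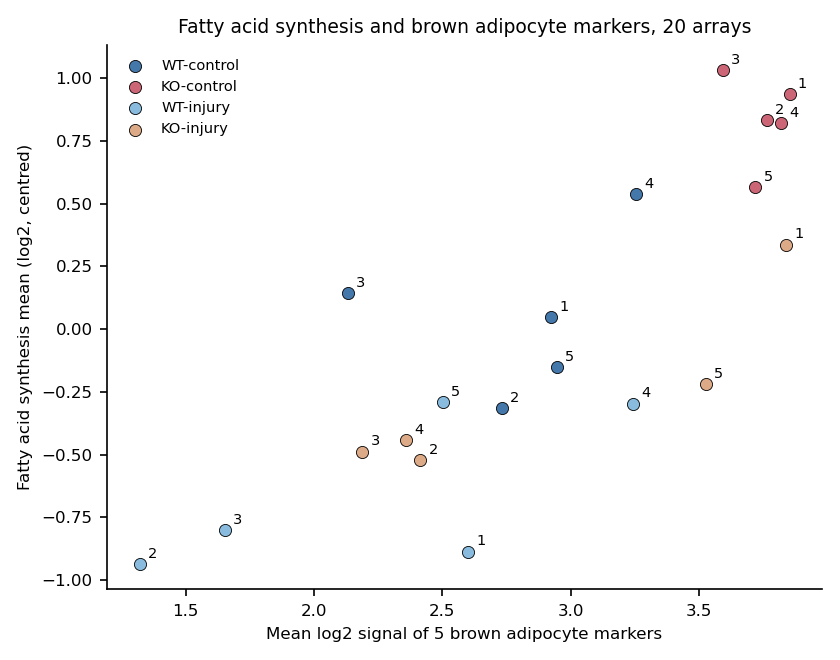
Mean of the 10 fatty acid synthesis genes (log2, each centred over its measured arrays) against the mean log2 signal of 5 brown adipocyte markers. Each point is 1 array, coloured by group and numbered by replicate, and a gene without a value on an array is left out of its mean. The 5 KO-control arrays sit at 3.59 or more on the horizontal axis and 0.57 or more on the vertical, and KO-injury replicate 1 lies nearest to them.

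Other cell type markers were compared in the same way. Over 20 arrays the mean of the 10 genes correlated at 0.78 with secretory epithelium, -0.71 with myeloid and -0.76 with proliferation markers, and at 0.28, -0.14 and -0.25 after group means were subtracted. Between uninjured groups the medians of these lists were 0.05, -0.32 and -0.52, with 0 called in each (limma). Thyroid markers, from a gland beside the trachea, were at 0.51 and 0.61 on the same 2 measures, with -0.46 to 2.30 in WT-control and -0.14 to 2.27 in KO-control. The 6 tested of 8 Schwann cell and myelin markers, another lipid-making cell type, correlated at 0.40 and 0.34 and had a median of 0.09 between uninjured groups. Ciliated, basal, submucosal gland, skeletal muscle, cartilage, smooth muscle and parathyroid markers also had 0 called between the uninjured groups (limma), with medians of -0.15, -0.02, 0.21, 0.14, -0.26, 0.28 and, on 1 gene, 1.02.

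The rest of lipid metabolism was described by 7 lists. Of 23 tested other enzymes of fatty acid synthesis and elongation, 17 were higher in KO-control, with a median of 0.17. At an unadjusted p under 0.05, 5 were higher against 3.82% of all probes, and 0 were called (limma). The largest difference in this list, chosen after the values were seen, was that of Elovl3, a fatty acid elongase of brown fat and skin. It was at -4.49 to -2.60 in WT-control and -1.51 to -0.36 in KO-control. In the same list the citrate carrier Slc25a1 differed by 0.84 and the acetate-activating enzyme Acss2 by 0.82. In wild-type injury 1 of the 23 rose, the desaturase relative Fads3 at 0.66 (limma, adjusted p = 0.0048), and 1 fell, Acss2 at -1.12 (limma, adjusted p = 0.0053).

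Regulators of fatty acid synthesis were higher in 19 of 23, with a median of 0.20 and 0 called (limma). Chosen after the values were seen, the carbohydrate-response factor Mlxipl differed by 0.79, the adipocyte factor Pparg by 0.77 and Insig1, which retains SREBP in the endoplasmic reticulum, by 0.54. Srebf2, which governs cholesterol synthesis, differed by 0.05, and the 21 genes of cholesterol synthesis had a median of 0.04, with 0 called. Cholesterol synthesis stood near the median of all probes where the fatty acid set stood at 0.88.

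Genes of triacylglycerol synthesis, storage and breakdown were higher in 14 of 15, with a median of 0.45. At an unadjusted p under 0.05, 7 of 15 were higher against 3.82% of all probes (limma). In 5 of 15 the groups did not overlap, against 1.71%. Mogat2, which acylates monoacylglycerol, was the 1 gene called (difference 2.63 ± 0.36, limma, adjusted p = 0.000254). Mogat2 was also the 1 gene called between the uninjured groups within 2 Mb of Thrsp, at 1.80 Mb by the positions in the files, and the unnamed probe described with Acaca 3 was the 1 such neighbour of Acaca. No other member had a called neighbour within that distance. The other lists had 0 called between the uninjured groups (limma): fatty acid oxidation had a median of 0.25, uptake and binding -0.16 and other sources of NADPH 0.13.

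After injury fatty acid oxidation was lower in 19 of 20 genes in each genotype, with medians of -0.51 in wild type and -0.49 in knockout and 0 called (limma). Triacylglycerol genes had medians of -0.25 and -0.74, regulators -0.04 and -0.27, cholesterol synthesis -0.14 and -0.23, other synthesis enzymes -0.05 and -0.23, NADPH supply -0.24 and -0.17, and uptake and binding -0.79 and -0.70. Without KO-injury replicates 1 and 5 the knockout medians were -0.77 for oxidation, -0.995 for triacylglycerol genes, -0.32 for regulators, -0.17 for cholesterol synthesis, -0.27 for other synthesis enzymes, 0.02 for NADPH supply and -0.93 for uptake and binding. Of these, 10 of 20 oxidation genes, 7 of 15 triacylglycerol genes and 4 of 23 regulators were then called lower (limma). So were 2 of 23 other synthesis enzymes and 2 of 7 uptake genes, where 4.49% of all probes were called lower.

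**Figure D4:**
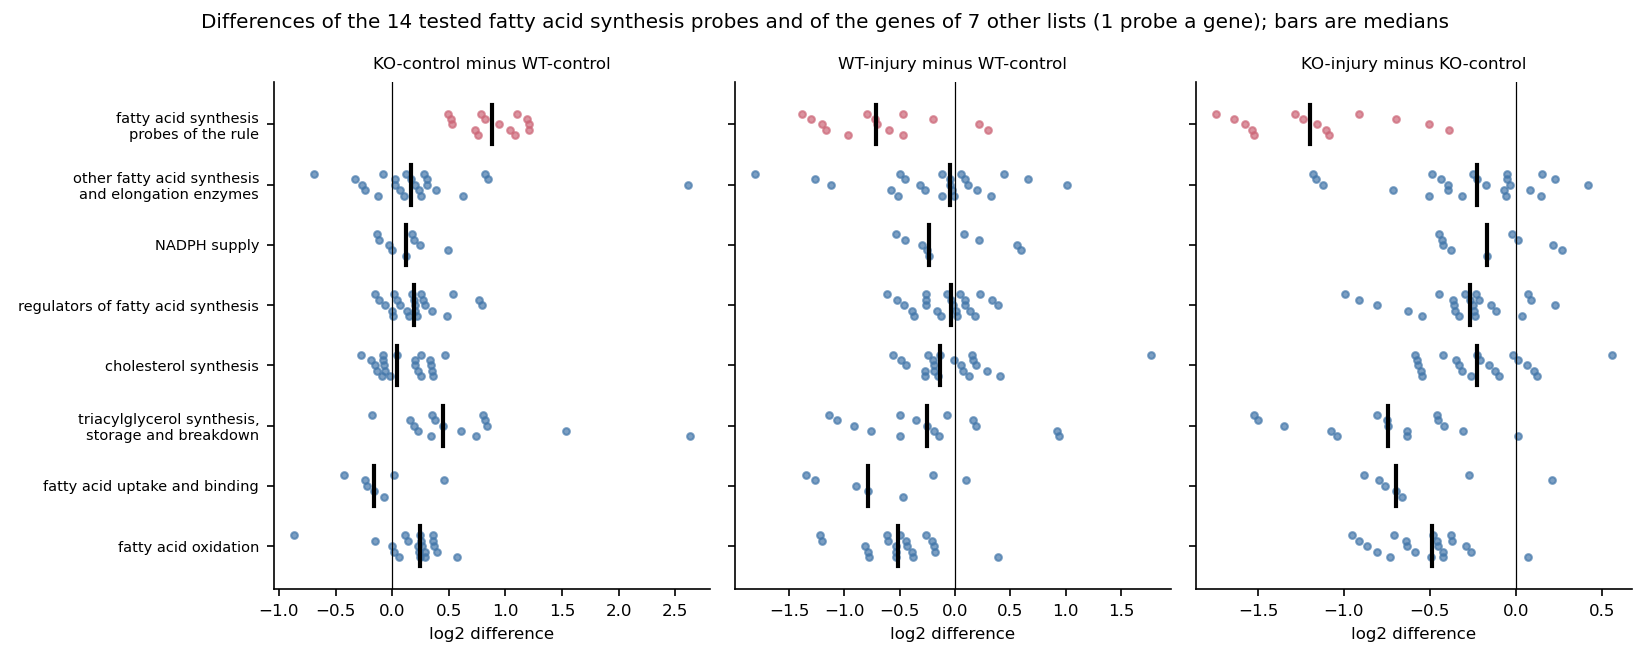
Log2 differences in 3 comparisons for the 14 tested fatty acid synthesis probes (red) and for the genes of 7 other lists of lipid metabolism (blue, 1 probe a gene), with black bars at the medians. Between uninjured groups the fatty acid synthesis median is 0.88 and those of the other lists run from -0.16 to 0.45.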

How the data were processed

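RNA from 20 whole tracheas, 5 in each of 4 groups set by the sample titles, was measured on one-colour Agilent arrays. The authors deposited the spot intensity after background subtraction in Agilent Feature Extraction, not scaled between arrays. Control spots and outlier spots (1960 values) were left out here, spots of a probe were averaged, and log2 values were set relative to the 75th percentile of each array. The 26063 of 41174 probes well above background on at least 10 arrays were fitted together with limma 3.58.1 in R 4.3.3 (adjusted p under 0.01, Benjamini-Hochberg within each of 5 contrasts), checked first on simulated data. The share of spots well above background was 57.5% to 67.8%, and the number of arrays limits the precision. Each array is a separate sample in the labels, which do not say whether a sample is 1 animal, so p-values measure the spread between these samples. Arrays with the same number share a slide per the file headers. Their deviations from the group means correlated at 0.25 to 0.48 between WT-control and KO-control in all 5 pairs. Elsewhere they correlated at -0.26 to 0.46, and some pairs did not exceed 0.1. The median was 0.24 over all pairs of the same number and -0.08 over pairs of different numbers. The main fit had no block for the slide, so its p-values do not use this pairing. The slide entered as a block only in an alternative. Lists used the brightest tested probe of a gene. Alternatives changed scaling, background, filter, outliers, blocks, weights, threshold, test and arrays. The deposited value table of intensities was one of them. The members, lists and rules for naming genes (members, Myd88, called list genes, the 10 most alike probes and adipocyte markers) were chosen with earlier results of these data known.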

Additional observations from a re-analysis of the deposited data

Results flagged for a closer look

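In 6 of 64 sets of values from 4 or 5 arrays of a group, which here include the 2 Me1 probes and the untested second Acly probe, the highest or lowest array was farther from the rest than Dixon's test allows at the 95% level, and chance gives about 1 in 20. KO-control replicate 5 was the low array for Thrsp, at 4.43, and for Scd2, at 3.64. KO-control replicate 1 was the high array for the first Me1 probe, at 4.15. WT-control replicate 2 was the low array for Acaca 4, at -4.38, and WT-control replicate 4 the high array for Scd1, at 5.78. KO-injury replicate 1, whose Saa3 and Scgb1a1 values lay between those of injured and uninjured tracheas, was the high array for Elovl6, at 2.47.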

How the results depend on the processing

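Calls of members lay near the threshold and their number moved with the processing, while the signs of the differences between uninjured groups did not change under any alternative run. After injury in wild type, 1 member probe was called. The count was 0 with arrays scaled to their median and with no filter on dim probes. It was also 0 with the slide as a replicate block and with the methods' one-way test after Benjamini-Hochberg. It was 2 with quantile normalization (2.04% of all probes lower) and with that one-way test at an unadjusted p under 0.01 (5.36%). Without KO-injury replicates 1 and 5 it was 2 (3.46%). At an adjusted p under 0.05 it was 5 (4.98%), and with array weights 6 (3.9%). After injury in the knockout, where 1 was called, it was 0 in a fit of only the groups compared and with the one-way test after adjustment, 3 with normexp background correction or with outlier spots kept (0.269% and 0.242% of all probes lower), 5 with the scanning day as a block (0.882%), 9 at an adjusted p under 0.05 (1.96%), 11 with the one-way test unadjusted (3.15%), 12 without KO-injury replicates 1 and 5 (4.49%) and 13 with array weights (4.72%). Between uninjured groups 2 were called. The count was 1 with probes well above background on all 20 arrays (0.166% of all probes higher) and with the replicate block (0.192%). It was 0 in a fit of only the groups compared and with the one-way test after adjustment, and 8 with that test unadjusted (2.02%). It was 3 with the scanning day as a block (0.238%), with array weights (0.334%) and at an adjusted p under 0.05 (0.303%). It was also 3 without KO-injury replicates 1 and 5 (0.219%). Srebf1 was also called in these settings, and with normexp Srebf1 was called in place of Acaca 3. The adjusted p of Srebf1 ran from 0.00082 to 0.0693 (limma) over the alternatives that keep all arrays or leave out that pair. Between injured groups the count was 1 with the one-way test unadjusted (0.81% of all probes higher), and otherwise 0. For the difference of the injury responses it was 0 throughout. The cause of these shifts was not tested. Leaving out KO-injury replicates 1 and 5 together was chosen after seeing the data.

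With 1 array left out the counts ran from 0 to 2 after injury in wild type, 0 to 7 in the knockout and 0 to 3 between uninjured groups, and stayed at 0 in the other comparisons. Acly between uninjured groups had an adjusted p of 0.00133 to 0.0645 (limma) over the other alternatives, and Acaca 3 one of 0.00055 to 0.270 (limma).

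With the replicate block, Acly between uninjured groups had an adjusted p of 0.0128 (limma), Acaca 3 one of 0.000919 (limma) and Scd1 after injury in wild type one of 0.0143 (limma). The block changed no other call of a member.

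Differences near 0 changed sign. In the interaction these were Elovl6 (0.053) and Scd1 (0.12) with quantile normalization, Fasn 1 with outlier spots kept (-0.71), with array weights (-0.0296) and without KO-injury replicates 1 and 5 (-0.28), and the first Me1 probe without those 2 arrays (-0.049). Between injured groups they were Acaca 4 with normexp (-0.041), Srebf1 with array weights (-0.048), and Srebf1 (-0.17), Thrsp (-0.097), Acaca 4 (-0.085) and Acacb 1 (-0.070) without KO-injury replicates 1 and 5. With single arrays left out, Srebf1 ran from -0.077 to 0.10 and Acaca 4 from -0.045 to 0.24 between injured groups. In the interaction the 2 Me1 probes ran from -0.13 to 0.22 and -0.13 to 0.29, Fasn 1 from -0.28 to 0.72, Elovl6 from -0.26 to 0.22 and Scd1 from -0.43 to 0.14.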
